A study of Mus musculus with 15 samples.

Results

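The globin and red blood cell transcripts described here are 5 genes of the 18931 in the deposited expression table. They are the alpha globins Hba-a1 and Hba-a2, the adult beta globins Hbb-bs and Hbb-bt, and Alas2. They were taken by gene symbol in all 15 libraries, and they had been singled out with their levels in these libraries already known. Their levels and differences are therefore a description. How many of them passed each test is printed once, beside the share or number of all genes that did, and nothing is read from those counts. All 5 passed the filter on low counts, Hba-a2 narrowly, through at least 10 counts in only JU replicates 1 and 2 and sham replicate 2.

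Hemoglobin, the oxygen carrier of blood, is assembled from alpha and beta globin chains, each holding a heme group. Alas2 is the erythroid form of the first and rate-limiting enzyme of heme synthesis, while Alas1 serves other tissues. Mouse red cells lose their nucleus before they enter the circulation, but reticulocytes, the youngest of them, still carry globin and Alas2 messenger RNA. Bulk RNA from brain holds the transcripts of blood inside its vessels, and low globin expression has also been described in neurons and glia.

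Messenger RNA was sequenced from brains of Kunming mice, an outbred stock, in 5 groups of 3 libraries: mice with middle cerebral artery occlusion (MCAO) treated with JA, UA or JU, mice with occlusion given vehicle, and sham mice, whose titles also carry the name of the MCAO model. The labels do not spell out JA, UA and JU. The study's title names jasminoidin combined with ursodeoxycholic acid and asks about synergy after cerebral ischemia and reperfusion, and JU is treated below as the combination of both, although no label says so. The sources used here do not give the dose, the time after surgery, age, sex, brain region or hemisphere, nor whether the brains were flushed of blood or whether each library was a separate animal.

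Total counts ran from 18346180 to 20447465 per library. Neuronal and oligodendrocyte markers such as Snap25 and Mbp were abundant in all 15 libraries, which are labelled as brain. JU replicate 1 stood apart, with 2851 CPM (gene counts relative to library size, with TMM factors) summed over 6 neuronal markers against 4420 to 8123 CPM in the other libraries. Its 6 microglial markers summed to 2573 CPM, against 277 to 2029 CPM elsewhere. Vehicle replicate 1 had 23.8 CPM of choroid plexus markers, against 284 to 1222 CPM elsewhere. Leaving out JU replicate 1 raised the genes called between vehicle and sham to 5172, against 760 with it, so genome-wide counts of calls rest heavily on that library. Tests below measure only the spread between these libraries, which may be technical.

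The 5 genes lie in 3 places of the genome (build GRCm38, GENCODE vM21 annotation). Hba-a1 occupies chr11:32283511-32284465 and Hba-a2 chr11:32296489-32297298, both on the plus strand with 3 exons and 12023 bases apart. Hbb-bs lies at chr7:103826534-103828096 and Hbb-bt at chr7:103812524-103813996, both on the minus strand with 3 exons and 12537 bases apart. Alas2 lies at chrX:150547375-150570638 on the plus strand and has 11 exons. Hbb-bs and Hbb-bt are the beta genes of the haplotype carried by the reference strain C57BL/6, other mouse strains carry a different adult pair, and the sources used here do not say which haplotype these outbred mice had.

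The promoters are shown because the genes varied together. Each is 250 bases ending 1 base before the transcription start in RefSeq (GRCm38.p6), which matched all 5 genes; GENCODE also annotates transcripts that begin inside these windows. Capitals mark matches, on either strand, to 4 short motifs. GATAA is a core bound by GATA factors such as the erythroid regulator GATA1. CCAAT is bound by general factors such as NF-Y. ATATAA is a TATA box, and CACCC is a core bound by KLF1 and related factors. Matches on the opposite strand appear as reverse complements, and in Hbb-bt a pair of neighbouring matches forms a single run of capitals.
Hba-a1 (chr11:32283422-32283671, plus strand): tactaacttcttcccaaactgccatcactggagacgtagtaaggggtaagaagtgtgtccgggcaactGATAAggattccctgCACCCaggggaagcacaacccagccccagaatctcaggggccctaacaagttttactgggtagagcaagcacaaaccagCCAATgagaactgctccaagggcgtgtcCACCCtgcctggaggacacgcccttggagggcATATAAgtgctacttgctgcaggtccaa
Hbb-bs (chr7:103827929-103828178, minus strand): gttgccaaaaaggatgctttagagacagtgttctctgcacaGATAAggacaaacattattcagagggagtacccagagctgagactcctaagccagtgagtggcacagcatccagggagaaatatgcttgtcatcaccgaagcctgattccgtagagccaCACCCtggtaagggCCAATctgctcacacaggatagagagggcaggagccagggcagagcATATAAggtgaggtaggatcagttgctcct
Hbb-bt (chr7:103813924-103814173, minus strand): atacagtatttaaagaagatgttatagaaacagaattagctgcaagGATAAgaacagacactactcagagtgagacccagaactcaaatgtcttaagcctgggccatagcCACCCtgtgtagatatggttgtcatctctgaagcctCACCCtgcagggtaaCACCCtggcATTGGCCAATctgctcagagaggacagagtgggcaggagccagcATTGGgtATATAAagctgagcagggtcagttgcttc
Alas2 (chrX:150547167-150547416, plus strand): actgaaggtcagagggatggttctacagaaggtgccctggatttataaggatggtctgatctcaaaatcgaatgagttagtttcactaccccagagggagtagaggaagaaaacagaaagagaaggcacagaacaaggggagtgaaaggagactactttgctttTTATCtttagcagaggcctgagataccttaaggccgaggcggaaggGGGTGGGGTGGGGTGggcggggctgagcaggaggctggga

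The Hba-a2 promoter is not printed because it is nearly that of Hba-a1. In RefSeq windows of 300 bases, the 250 bases before each start with the 50 after it, the pair shared an identical run of 297 bases, shifted by 3 bases. The promoters of Hbb-bs and Hbb-bt were identical at 175 of 244 aligned bases (71.7%). GATAA was found in all 5 promoters, and 22.6% of 32851 mouse promoters of the same length held it. It lay 182 to 178 bases before the start of Hba-a1, 209 to 205 before Hbb-bs and 204 to 200 before Hbb-bt, and on the opposite strand 86 to 82 before Alas2. The 4 globins each held ATATAA (9.10% of all promoters), at 28 to 23 bases before the start in Hba-a1, 30 to 25 in Hbb-bs and 29 to 24 in Hbb-bt. They also each held CCAAT (33.8% of all promoters), and neither motif was found in the Alas2 window. CACCC was in all 5 windows and in 52.0% of all promoters, so its presence is common. In Alas2 it occurred in 3 neighbouring copies on the opposite strand, between 40 and 26 bases before the start, and in Hbb-bt 2 of the 3 CCAAT matches stood directly beside each other in opposite orientation. A match is a run of letters and not a measured binding site.

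The alpha globin transcripts are nearly the same molecule, which bears on how reads could be shared between them. Over 538 aligned bases of the GENCODE transcripts, 537 were identical. The single difference, C577T (Hba-a1 base first, counted from 1 at the 5′ end of its 699-base transcript), lies in the coding part of exon 3. The 25 bases around it, with that base in capitals, are as follows.
Hba-a1 (chr11:32284331-32284355, plus strand): tgcctctctggaCaaattccttgcc
Hba-a2 (chr11:32297148-32297172, plus strand): tgcctctctggaTaaattccttgcc
Of the 505 stretches of 50 bases in the Hba-a2 transcript, 439 (86.9%) also occur in Hba-a1, and of its 455 stretches of 100 bases, 339 (74.5%) do. The Hbb-bs and Hbb-bt transcripts were identical at 580 of 626 aligned bases (92.7%), and 58.3% of the 50-base stretches of Hbb-bt occur in Hbb-bs. The sources used here do not give the counting rule for reads that match both copies, so the split within each pair is uncertain and the summed globins are the firmer measure.

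The 4 globins together were highest in JU, near one another in UA and sham, and lowest in vehicle and JA. Their summed level was 378.5, 504.7 and 484.7 CPM in JU replicates 1, 2 and 3, and 137.5, 125.3 and 304.4 CPM in UA. It was 5.59, 66.7 and 44.5 CPM in JA, 13, 4.12 and 139.9 CPM in vehicle, and 203.6, 190.7 and 139.5 CPM in sham. The JU libraries took ranks 1 to 3 of the 15, UA replicate 3 rank 4, and vehicle replicate 2, JA replicate 1 and vehicle replicate 1 the 3 lowest ranks. Vehicle replicate 3 was level with sham replicate 3, far above the other 2 vehicle libraries.

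As group levels, the summed globins averaged 38.9 ± 30.9 CPM in JA, 189 ± 100 CPM in UA, 456 ± 67.8 CPM in JU, 52.3 ± 76.0 CPM in vehicle and 178 ± 33.9 CPM in sham (SD, n = 3 each). The mean of JU was 2.56 times that of sham, 8.71 times that of vehicle, 11.7 times that of JA and 2.41 times that of UA. In the order of the means, JU stood above UA and its libraries did not overlap those of any other group. UA (1.06 times sham) and sham overlapped, as did vehicle and JA (0.743 times vehicle), so these neighbours did not differ beyond their spread. JA averaged 0.219 times sham, and vehicle averaged 0.294 times sham, with vehicle replicate 3 inside the sham range. In bulk tissue, fewer cells of a type and less RNA per cell cannot be told apart.

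**Figure D1:**
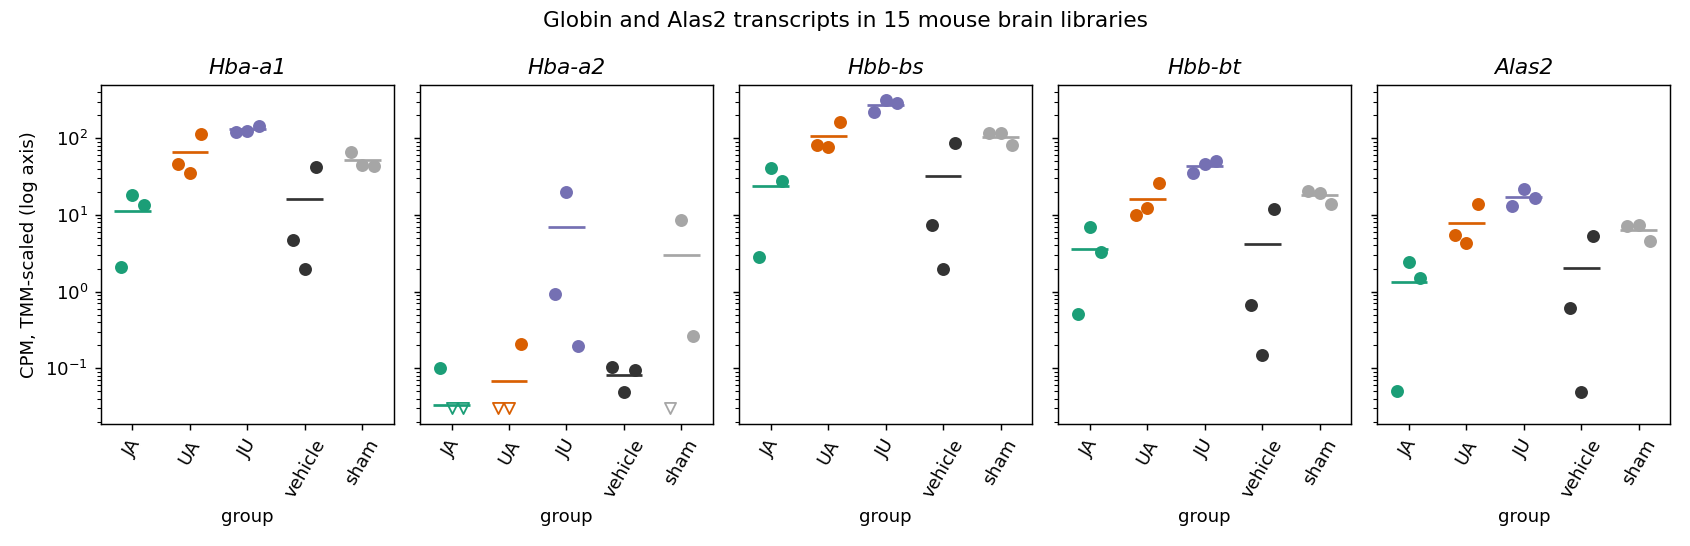
Level of each transcript in the 15 libraries, as TMM-scaled CPM on a log axis, by group. Points are libraries, short lines are means of 3 libraries, and open triangles at the bottom are libraries with 0 counts; the 3 JU libraries lie above all others for Hba-a1, Hbb-bs and Hbb-bt, and vehicle is the most scattered group for every gene but Hba-a2.

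These sums were small shares of the libraries. The 4 globins took 0.0495% of all counts in JU replicate 2, which was 9238 of 18678857 counts (exact 95% interval 0.0485% to 0.0505%). They took 0.000426% in vehicle replicate 2, which was 84 of 19734277 counts (0.000340% to 0.000527%). These intervals cover counting error only, and amplified reads without molecular identifiers are not independent molecules. On the authors' FPKM, a level per transcript length, Hbb-bs ranked 55th of all genes in JU replicate 2 and 10354th in vehicle replicate 2.

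Among the alpha globins, Hba-a1 carried nearly all counts. It had 121, 126 and 144 CPM in JU, 45.9, 35.1 and 115 CPM in UA and 2.11, 18.2 and 13.5 CPM in JA, against 4.76, 1.96 and 41.7 CPM in vehicle. Sham libraries had 66.7, 45.2 and 43.1 CPM. The JU libraries lay close together and above the other 12, and UA replicate 3 came just under the lowest of them.

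Hba-a2, the second copy, was counted in quantity in only JU replicate 2 and sham replicate 2. It had 18, 366 and 4 counts in JU and 0, 0 and 4 counts in UA. It had 2, 0 and 0 counts in JA, 2, 1 and 2 counts in vehicle, and 0, 166 and 5 counts in sham. The large values thus stood in 1 library each of 2 groups. With 3 counts as the floor of detection, 0.147 to 0.164 CPM, the copy was at or under the floor in all JA and vehicle libraries, and no fold change is given for it.

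Of the alpha globin counts, Hba-a2 made up 13.7% in JU replicate 2 (exact 95% interval 12.4% to 15.1%) and 16.1% in sham replicate 2 (13.9% to 18.4%). In the other 10 libraries with more than 500 globin counts its share was 0% to 0.759%. Total alpha globin in the pair of libraries with high Hba-a2 was not raised relative to beta globin. It made up 28.9% of the globin counts in JU replicate 2 and 28.2% in sham replicate 2. The other 10 libraries ranged from 27.3% to 37.95%.

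Hbb-bs had the highest level per length of the 5 genes by group mean in every group, with 430 ± 70.5 FPKM in JU and 163 ± 30.7 FPKM in sham (SD, n = 3 each). Its counts gave 222, 313 and 291 CPM in JU, 81.4, 77.8 and 163 CPM in UA and 2.87, 41.5 and 27.6 CPM in JA, against 7.47, 1.96 and 86.2 CPM in vehicle. Sham libraries had 116, 117 and 82.3 CPM. The JU libraries again lay above the other 12, and JA replicate 1 and vehicle replicates 1 and 2 were the lowest.

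Hbb-bt, the adult beta globin with fewer counts in these libraries, had 69.5 ± 12.6 FPKM in JU and 28.4 ± 5.73 FPKM in sham. It reached 35.0, 46.1 and 50.2 CPM in JU, 10.1, 12.3 and 26.3 CPM in UA and 0.503, 6.94 and 3.31 CPM in JA, against 0.665, 0.147 and 11.9 CPM in vehicle. Sham libraries had 20.8, 19.5 and 13.9 CPM. All vehicle libraries were below all sham libraries, as for 24.7% of all genes tested, and the order of the libraries was close to that of Hbb-bs.

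Alas2 was the least abundant of the genes other than Hba-a2, with 8.51 ± 2.02 FPKM in JU and 3.14 ± 0.794 FPKM in sham. It had 13.1, 21.7 and 16.8 CPM in JU, 5.47, 4.29 and 13.9 CPM in UA and 0.0503, 2.42 and 1.49 CPM in JA, against 0.614, 0.0490 and 5.35 CPM in vehicle. Sham libraries had 7.16, 7.50 and 4.54 CPM. UA replicate 3 exceeded JU replicate 1, so JU overlapped UA for this gene, and JA replicate 1 and vehicle replicate 2 held 1 count each.

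The proportions between the genes changed far less than their levels. Over the 12 libraries with more than 500 globin counts, Hbb-bt made up 10.7% to 15.2% of the beta globin counts, with a median of 13.8%. Alas2 made up 3.15% to 4.36% of the counts of the 5 genes. The alpha globins made up 27.3% to 37.95% of globin counts, and UA replicate 3 was highest. Over the same 12 libraries the summed globins ran from 44.5 to 504.7 CPM. The remaining libraries, JA replicate 1 and vehicle replicates 1 and 2, held 111, 254 and 84 globin counts, and their shares were imprecise: alpha globin made up 48.8% of the 84 counts in vehicle replicate 2, with an exact 95% interval of 37.7% to 60%.

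**Figure D2:**
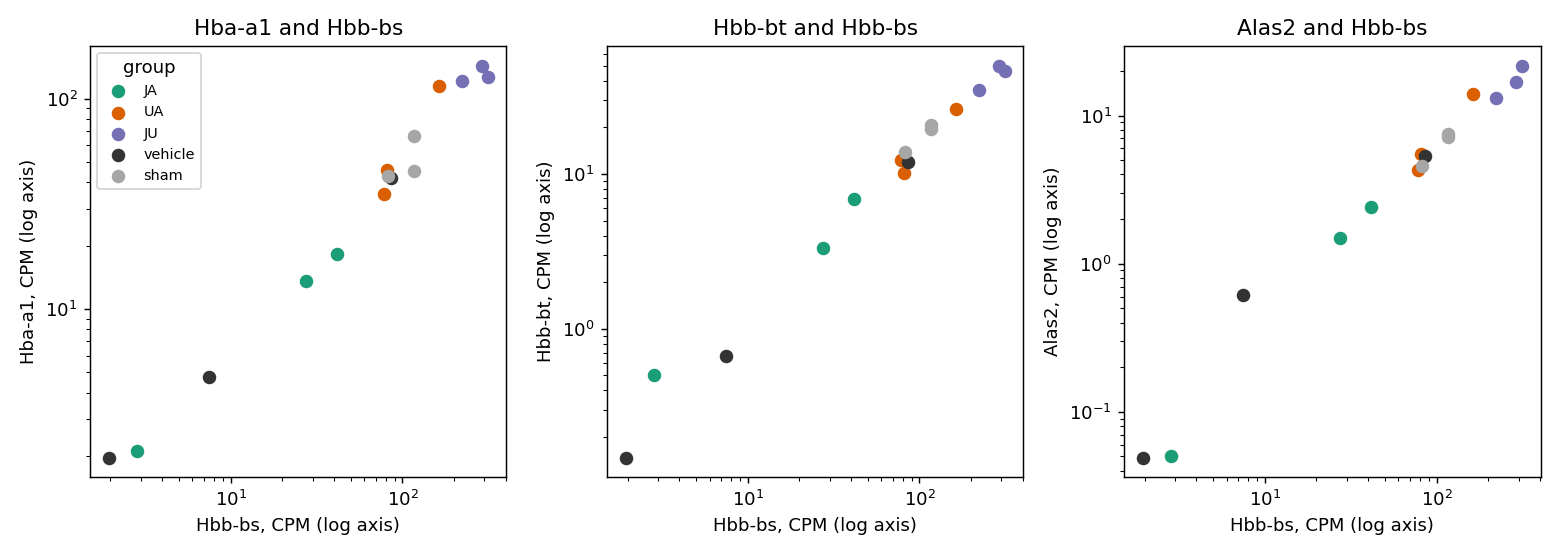
Hba-a1, Hbb-bt and Alas2 against Hbb-bs in each library, all as TMM-scaled CPM on log axes, coloured by group. Each point is 1 library; the points follow 1 line in each panel, from vehicle replicate 2 and JA replicate 1 at the lower left to the JU libraries at the upper right. The points share library depth and scaling.

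**Figure D3:**
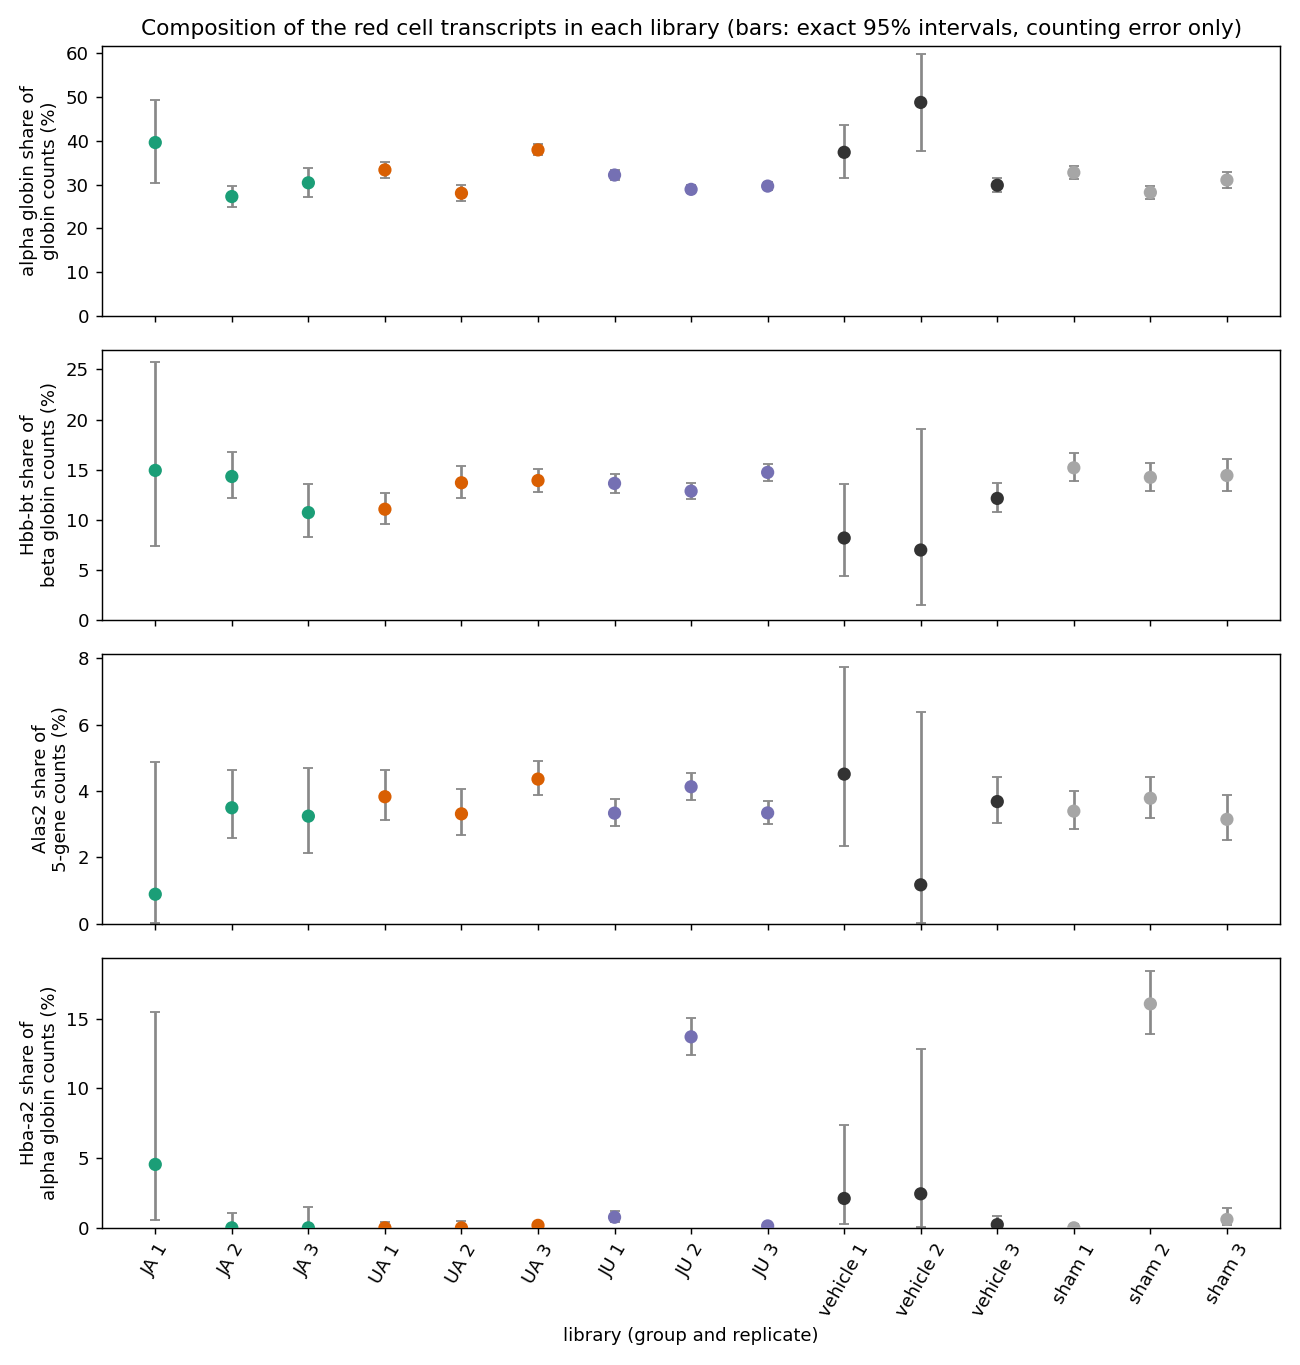
Share of alpha globins among globin counts, of Hbb-bt among beta globin counts, of Alas2 among the counts of the 5 genes, and of Hba-a2 among alpha globin counts, in percent, in each library. Bars are exact 95% intervals for counting error only; the upper 3 shares stay within narrow bands where counts are high, while Hba-a2 reaches 13.7% in JU replicate 2 and 16.1% in sham replicate 2 and stays under 5% in the others.

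The spread of these genes was wide against that of other genes. The range over the 15 libraries was 6.12 for Hba-a1, 7.24 for Hbb-bs, 7.65 for Hbb-bt, 7.17 for Alas2 and 7.61 for Hba-a2 on the log2 CPM scale, against a median of 0.96 over 15125 genes tested. Of all those ranges, Hbb-bt held rank 36 and Hba-a1 rank 111. For the 4 genes other than Hba-a2, SDs of log2 CPM within groups were 1.65 to 2.17 in JA, 0.60 to 0.90 in UA, 0.13 to 0.37 in JU, 2.24 to 2.87 in vehicle and 0.29 to 0.39 in sham. The median SDs over all genes tested were 0.15 in JA, 0.12 in UA, 0.35 in JU, 0.18 in vehicle and 0.11 in sham. The vehicle and JA groups were thus the most scattered for these 4 genes. Only in JU did the 4 genes come near the median of their group, and in sham and UA they lay above it.

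Vehicle replicate 3 held most of the vehicle counts, and differences from vehicle varied with how libraries were averaged. The mean log2 CPM of the 5 genes differed by 0.20 between JA and vehicle, by 2.48 between UA and vehicle and by 4.29 between JU and vehicle. It differed by 4.09 between JU and JA, by 1.81 between JU and UA and by -2.92 between vehicle and sham (first minus second in each case). Without Hba-a2 the differences were 0.37, 3.17 and 4.53 for JA, UA and JU against vehicle. They were then 4.16 for JU against JA, 1.36 for JU against UA and -3.17 for vehicle against sham. The 1.81 between JU and UA thus rested partly on Hba-a2. Fitted edgeR differences were smaller in size than these mean log2 differences for JU and UA against vehicle, JU against JA and vehicle against sham. For the 4 genes other than Hba-a2, fitted log2 fold changes were 3.01 to 3.36 for JU against vehicle, 1.75 to 2.02 for UA against vehicle and -0.61 to -0.25 for JA against vehicle. They were 3.52 to 3.70 for JU against JA, 0.99 to 1.43 for JU against UA and -2.08 to -1.66 for vehicle against sham, with standard errors of 0.88 to 1.13. The sign for JA against vehicle was positive by mean log2 level and negative by the fit, and leaving out single libraries moved the mean log2 difference between -0.75 and 1.34. The contrasts with vehicle share its libraries.

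Counts of calls are given for reference only, since the genes were chosen on these values. In edgeR's quasi-likelihood test, with Benjamini-Hochberg adjusted p under 0.05, 0 of the 5 genes were called in vehicle against sham (5.02% of all genes tested), JA against vehicle (1.56%), UA against vehicle (3.47%), JU against vehicle (0.0%), JU against JA (0.0%) and JU against UA (1.08%). At an unadjusted p under 0.05 the counts were 1, 0, 1, 5, 5 and 1 of 5 in the same order, against 29.3%, 18.8%, 24.3%, 1.98%, 20.3% and 27.3% of all genes. DESeq2 called all 5 as higher in JU than in JA (4.54% of all genes) and Hba-a2 as higher in JU than in UA (10.4%). Hba-a2 was in the test only through JU replicates 1 and 2 and sham replicate 2, and most of its JU counts, 366, were in JU replicate 2. DESeq2 called 0 in vehicle against sham (15.9%) and in JA (7.07%), UA (10.4%) and JU (0.0%) against vehicle. Without vehicle replicate 3, the vehicle library with the highest globins, edgeR called Hba-a1, Hbb-bs and Hbb-bt lower in vehicle than in sham. It called 316 genes in all in that comparison. In the same fit these 3 were called higher in UA than in vehicle, among 220 genes called. No other edgeR fit with a single library left out called any of the 5.

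Every JU library lay above all of vehicle (2.35% of genes tested) and all of JA (6.39%) for Hba-a1, Hbb-bs, Hbb-bt and Alas2. Hba-a2 did so too, but through 4 counts in JU replicate 3 against at most 2 in vehicle and JA, near the floor of 3. It had passed the filter only through JU replicates 1 and 2 and sham replicate 2. The JU libraries lay above all of UA for Hba-a1, Hbb-bs and Hbb-bt (9.77%). These 3 also exceeded all 12 libraries of the other groups in every JU library, as did 49 of the 15125 genes (0.324%). The libraries of vehicle lay below all of sham for Hba-a1 and Hbb-bt (24.7%). With JU replicate 1 left out, the difference in mean log2 CPM of the 5 genes, Hba-a2 included, was 4.48 between JU and vehicle. It was then 4.28 between JU and JA and 2.0 between JU and UA.

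Genes whose pattern came nearest were sought among 14057 others with a mean of at least 1 CPM. Likeness was the root mean square difference from the mean log2 CPM of the 5 genes over 15 libraries, each centred on its own mean. Hba-a1, Hbb-bs, Hbb-bt and Alas2, which themselves enter that mean, had values of 0.50, 0.50, 0.59 and 0.50, and Hba-a2, which also enters it, had 1.90. The nearest other genes were Cdsn at 1.57, Mypn at 1.61, Prr15 at 1.63, Ptges3l and Rspo1 at 1.65, Myl4 at 1.66, and Fst and Lemd1 at 1.67. A gene with no variation would have had 1.95, and the median gene had 1.96. The 8 nearest genes were thus farther from the mean pattern than 4 of the members and nearer to it than Hba-a2. Slc4a1, the band 3 anion exchanger of the red cell membrane, had 1.22, but its mean of 0.352 CPM kept it out of that ranking.

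The other genes of the red cell were taken from a list of 22 membrane, enzyme and regulator genes, of which 9 passed the filter. Of these, 0 were called in any of the 6 comparisons by edgeR, with 2, 1, 2, 2, 4 and 3 at an unadjusted p under 0.05 in vehicle against sham, JA, UA and JU against vehicle, and JU against JA and UA. DESeq2 called 1, Tal1, in vehicle against sham and 0 elsewhere. The median log2 fold changes of the 9 were -0.08, 0.04, 0.06, 0.27, 0.23 and 0.28 in that order, against 0.00, -0.01, -0.01, 0.03, 0.02 and 0.02 over all genes tested.

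The 8 list genes with a mean of at least 1 CPM are also used outside red cells. Slc25a37 (mitoferrin, which brings iron into mitochondria) averaged 29.5 ± 1.11 CPM in JU, against 21.7 ± 2.07 CPM in vehicle, a log2 fold change of 0.45 ± 0.09 (SE, edgeR adjusted p = 1.0). Tal1, a regulator of blood and endothelial development, averaged 4.95 ± 1.17 CPM in vehicle, against 1.78 ± 0.368 CPM in sham (log2 fold change 1.48 ± 0.45, edgeR adjusted p = 0.0711), opposite in sign to the globins. Gypc, which codes for glycophorin C, averaged 8.06 ± 7.25 CPM in JU, against 3.44 ± 1.22 CPM in JA (1.22 ± 0.54, edgeR adjusted p = 0.238), and its 16.4 CPM in JU replicate 1 set the JU mean. Over the 6 comparisons, fitted log2 fold changes lay between -0.27 and 0.17 for Sptb (beta spectrin), -0.17 and 0.16 for Ank1 (ankyrin), -0.34 and 0.61 for Ermap, -0.06 and 0.38 for Epor (the erythropoietin receptor) and -0.08 and 0.13 for Bpgm, the enzyme that makes the metabolite lowering the oxygen affinity of hemoglobin.

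The 14 other list genes, all under 1 CPM on average, include the membrane skeleton protein Epb42, the alpha globin chaperone Ahsp and the regulators Gata1 and Klf1. Their counts summed to 36, 31 and 37 in JU, 13, 25 and 70 in UA and 12, 10 and 7 in JA, against 21, 19 and 18 in vehicle. Sham libraries had 22, 27 and 26. JA held the lowest 3 sums, UA replicate 3 the highest and the JU libraries the next 3.

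Within those 14, Slc4a1 had 6, 10 and 17 counts in JU, 2, 11 and 25 counts in UA and 0, 0 and 3 counts in JA, against 1, 0 and 5 counts in vehicle. Sham libraries had 3, 10 and 10 counts. The fitted log2 fold change of Slc4a1 for JU against JA was 3.27 ± 1.22 (SE, edgeR adjusted p = 0.208). Ahsp had 4, 3 and 6 counts in JU, 3, 5 and 7 counts in UA and 0, 0 and 1 count in JA, against 0, 0 and 2 counts in vehicle and 2, 1 and 3 counts in sham. Gata1 and Cldn13, both active in erythroid precursors, had at most 3 counts in every library.

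**Figure D4:**
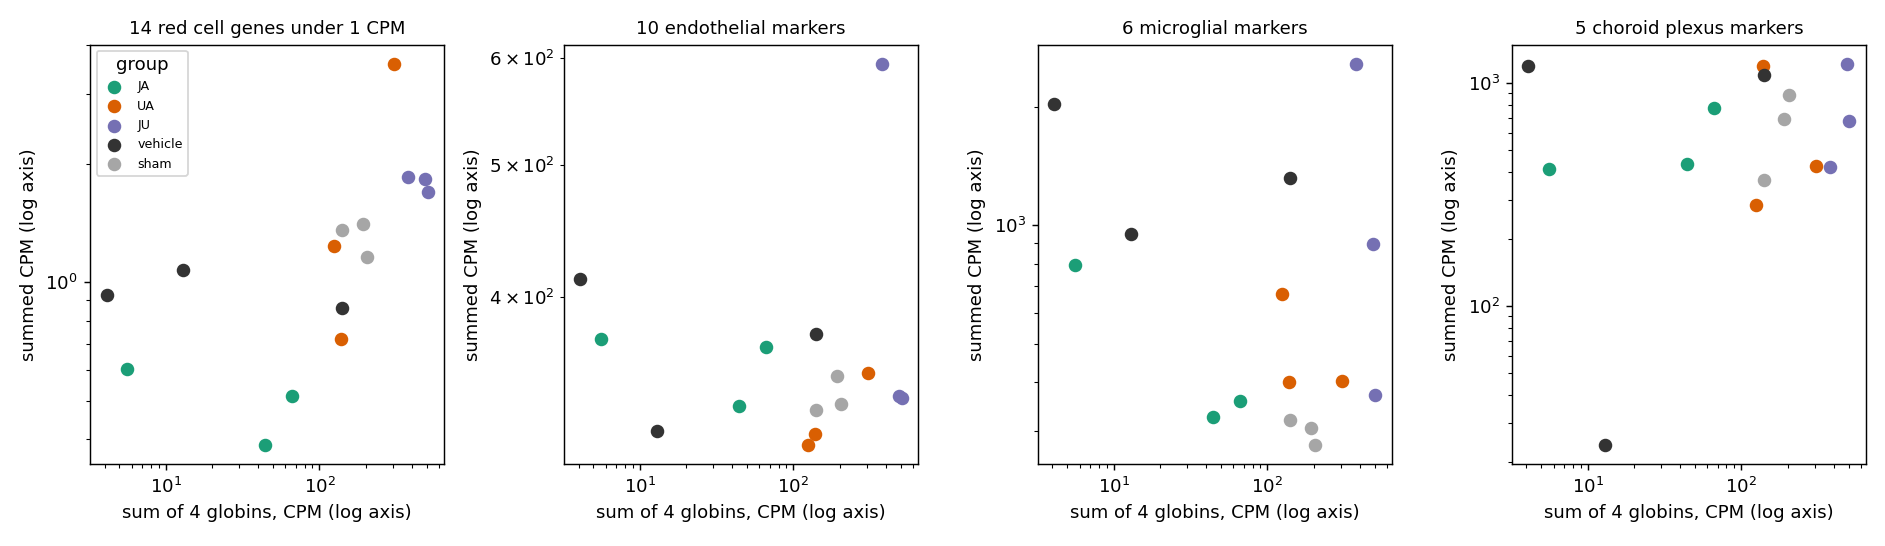
Summed CPM of the 14 low red cell genes and of endothelial, microglial and choroid plexus markers against the summed CPM of the 4 globins, 1 point per library, log axes, coloured by group. The 14 low red cell genes are lowest in JA and highest in UA replicate 3 and JU; endothelial markers span 311 to 594 CPM, with the highest in JU replicate 1.

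Of 13 other globin genes listed, 7 could be analysed here and 3 passed the filter. Cygb (cytoglobin) and Ngb (neuroglobin), which brain cells express, and Hbq1b, a theta globin, were called in 0 of the 6 comparisons by edgeR and by DESeq2, with 0 at an unadjusted p under 0.05 in edgeR. Cygb averaged 58.5 ± 11.1 CPM in JU and 64.4 ± 3.61 CPM in vehicle, and Ngb 5.85 ± 4.10 CPM in JU and 5.70 ± 0.778 CPM in vehicle. Hbq1b averaged 0.751 ± 0.0804 CPM in JA, against 0.949 ± 0.448 CPM in vehicle, a log2 fold change of -0.34 ± 0.55 (SE, edgeR adjusted p = 0.733). Of the embryonic globins, Hbb-y had 1 count in all libraries together and Hbb-bh2 had 0.

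The 9 other genes of heme synthesis were all tested, and 0 were called by edgeR in any comparison, with 1, 2, 1, 0, 1 and 2 at an unadjusted p under 0.05. DESeq2 called 1 in UA against vehicle and 1 in JU against JA. Alas1, the housekeeping counterpart of Alas2, averaged 74.9 ± 6.74 CPM in JU, against 63.8 ± 2.43 CPM in JA (0.23 ± 0.07, edgeR adjusted p = 0.154). Ppox, the penultimate enzyme, averaged 7.64 ± 1.85 CPM in UA, against 14.4 ± 1.34 CPM in vehicle (-0.91 ± 0.24, edgeR adjusted p = 0.0628). Urod averaged 37.3 ± 2.94 CPM in JA and 43.5 ± 2.85 CPM in vehicle, and Uros 15 ± 1.74 CPM in vehicle and 19.8 ± 0.852 CPM in sham, with adjusted p of 0.188 and 0.229 in edgeR.

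Hemoglobin freed from red cells is bound by haptoglobin and taken up through Cd163, and its heme is bound by hemopexin, taken up through Lrp1 and broken down by Hmox1. The 14 genes of this clearance were all tested, and 0 were called by edgeR in any comparison, with 3, 1, 4, 0, 5 and 7 at an unadjusted p under 0.05. DESeq2 called 2 in vehicle against sham, 1 in UA against vehicle and 5 in JU against UA. Their median log2 fold changes were 0.32 in vehicle against sham, -0.25, -0.27 and 0.22 in JA, UA and JU against vehicle, and 0.59 and 0.75 in JU against JA and UA. Medians over all genes tested lay between -0.01 and 0.03. The 14 genes summed to 8850 CPM in JU replicate 1, against 3162 and 3227 CPM in JU replicates 2 and 3. The sums were 3137 to 3275 CPM in UA and 2873 to 3684 CPM in JA.

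Hmox1 averaged 56.6 ± 32.2 CPM in vehicle, against 5.33 ± 0.854 CPM in sham (log2 fold change 3.41 ± 0.94, edgeR adjusted p = 0.057). Its levels were 60.9, 86.4 and 22.5 CPM in vehicle and 4.37, 5.62 and 6.0 CPM in sham. In JU it was 141 CPM in replicate 1, against 13.7 and 14.6 CPM in the others. JU replicate 1 also held the highest Cd163, at 17.1 CPM, against 2.19 and 2.61 CPM in the other JU libraries. The means of JU for Cd163 (7.29 ± 8.47 CPM, against 2.06 ± 0.457 CPM in UA), Lrp1 (799 ± 470.0 CPM, against 430.1 ± 40.6 CPM in UA) and the biliverdin reductase Blvrb (14.8 ± 8.58 CPM, against 7.73 ± 0.617 CPM in UA) rested on it, with edgeR adjusted p of 0.136, 0.130 and 0.129.

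**Figure D5:**
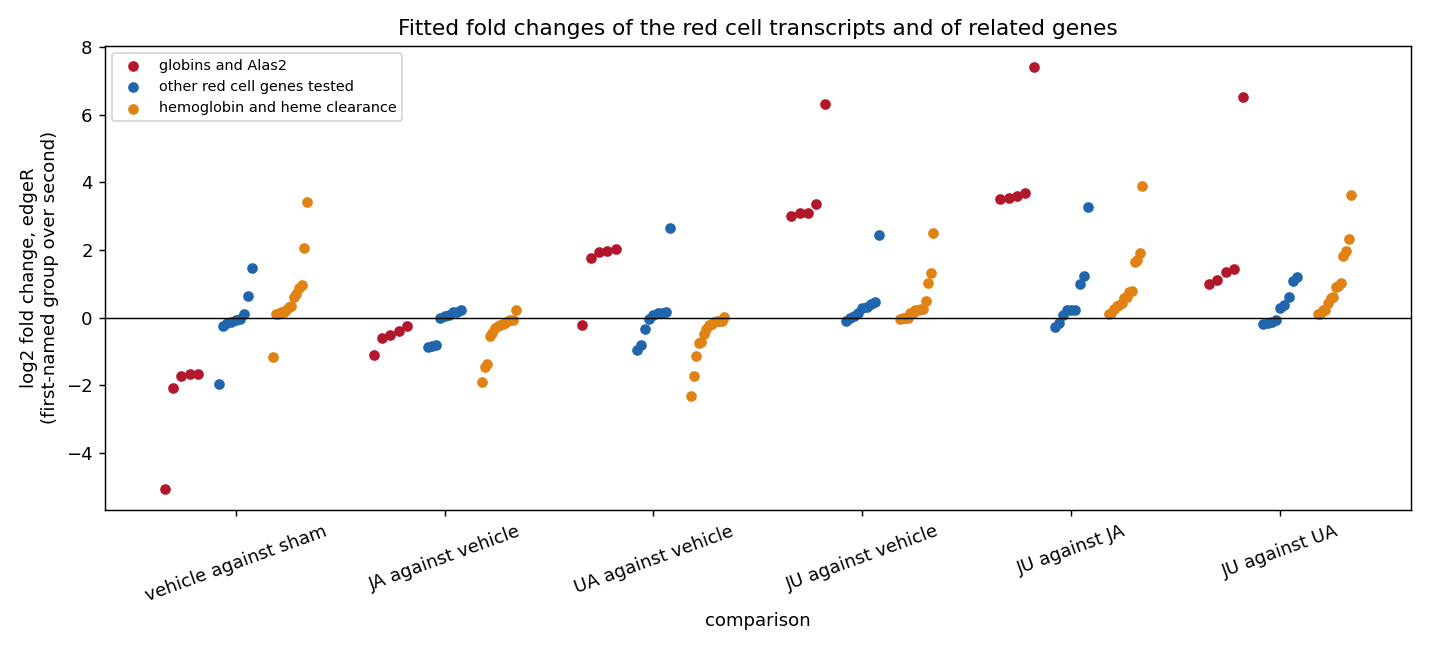
Fitted log2 fold changes (edgeR, first-named group over second) of the 5 genes, of the 9 other red cell genes tested and of the 14 clearance genes in the 6 comparisons; each point is a gene, placed side by side by size. In JU against vehicle all 5 red points lie above the other genes drawn, and the red point farthest from 0 in 5 of the 6 comparisons is Hba-a2, whose fitted value depends on the prior count.

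Markers of other cells gave the following values beside the globin levels. Microglial markers, 6 of 6 tested, summed to 326 to 796 CPM in JA, 400.5 to 672 CPM in UA, 371 to 2573 CPM in JU, 952 to 2029 CPM in vehicle and 277 to 320 CPM in sham. In vehicle against sham edgeR called 3 of them higher (Cx3cr1, Csf1r and Tmem119), and DESeq2 called 6. Neuronal markers, 6 of 6 tested, summed to 4420 to 6459 CPM in vehicle, against 7584 to 7827 CPM in sham, and astrocyte markers, 4 of 4 tested, to 1976 to 3674 CPM in vehicle, against 1069 to 1173 CPM in sham. Vehicle and sham did not overlap in any of these 3 sums. Among single genes, all vehicle libraries lay below all sham libraries, the direction of the neuronal sum, for 24.7% of those tested. The share in the opposite direction, that of the microglial and astrocyte sums, was not counted. The astrocyte sum differed mainly through Gfap, which averaged 1683 ± 795 CPM in vehicle and 191 ± 25.4 CPM in sham. Of the 4 astrocyte markers, 3 were higher and 1 lower in vehicle than in sham. In edgeR 0 neuronal and 0 astrocyte markers were called in that comparison, with 1 each at an unadjusted p under 0.05, and DESeq2 called 0 and 1. Vehicle replicate 3, whose globins were level with sham replicate 3, had 1322 CPM of microglial, 6459 CPM of neuronal and 2370 CPM of astrocyte markers, outside the sham ranges.

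Endothelial markers, 10 of 10 tested, summed to 311 to 351 CPM in UA, 332 to 373 CPM in JA and 337 to 594 CPM in JU. They summed to 318 to 412 CPM in vehicle and 330.0 to 349.6 CPM in sham. In edgeR 1, Slco1a4, was called, higher in JA than in vehicle (0.65 ± 0.14, edgeR adjusted p = 0.0411). Of the 10 in that comparison, 4 were higher and 6 lower in JA, with a median log2 fold change of -0.25. DESeq2 called 1 each in vehicle against sham, JA and UA against vehicle, and JU against UA. The endothelial sum was 337 and 338 CPM in JU replicates 2 and 3, within the sham range, while their globins were the highest of all. Pericyte and smooth muscle markers, 6 of 6 tested and 0 called in vehicle against sham by edgeR or DESeq2, summed to 103 to 173 CPM in vehicle, against 74.2 to 83.0 CPM in sham. Platelet markers, 5 of 10 tested and 0 called, summed to 13.9 to 22.1 CPM in JU and 12.9 to 15.7 CPM in vehicle, with Gp6 at 3 counts or fewer in all. Neutrophil markers, 6 of 11 tested, summed to 6.56 to 76.4 CPM in JU, 23.4 to 55.8 CPM in vehicle and 4.26 to 10.3 CPM in sham. Csf3r, which microglia also express, was called higher in vehicle than in sham (3.25 ± 0.84, edgeR adjusted p = 0.047). Csf3r alone averaged 37.1 CPM in vehicle, where the neutrophil sum averaged 42.2 CPM, and 3.90 CPM in sham. Of the 6 tested, 3 were higher and 3 lower in vehicle than in sham, with a median log2 fold change of -0.17. Lymphocyte markers stayed at 0.498 to 3.34 CPM in all libraries, with 2 of 8 tested and 0 called. The part of these cells in the globin levels was not tested.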

How the data were processed

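Per the file headers, the authors deposited raw read counts, 1 whole number per gene and library, and FPKM values, which the authors computed from fragments per transcript length and depth. RNA was isolated with a mirVana kit and libraries were built with a TruSeq Stranded mRNA kit, per the labels' protocols. Trimmomatic, HISAT2, Cufflinks, DESeq and the build GRCm38 (mm10) are named, with no version, in the submitters' processing notes. The counting tool, its strand setting and annotation were absent from the sources used here. Of the count columns, 1 matched the labels of no sample and was not used.

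Counts were tested by quasi-likelihood in edgeR 4.0.16 (R 4.3.3), with 15 libraries in 1 fit, a term for each of 5 groups, filterByExpr (15125 genes kept), TMM factors (0.975 to 1.03) and robust estimation, with 10 residual degrees of freedom and a biological coefficient of variation of 27.1%. Benjamini-Hochberg adjusted p-values cover all genes tested, with a threshold of 0.05, and SE is the fold change over the square root of F. Log2 CPM used a prior count of 2. The procedure was tested on simulated data. Alternatives were DESeq2 1.42.0, limma 3.58.1 on log2(FPKM + 0.1), no filter, only the compared groups, a replicate block, other scalings, and leaving out each library. The level without Hba-a2 was added after the data were seen.

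The members and gene lists were chosen with earlier results of these data known. Named genes are the members, up to 4 genes per list with the smallest p in any of the 6 comparisons, all red cell genes of at least 1 CPM and all other globins (some red cell genes are not reported here), and the 8 genes most like the members. Same-numbered libraries deviated together in all 3 pairs only for JU against JA (correlations 0.387 to 0.701), and no label ties the numbers to a shared animal, litter or day. The values in the report come from the fit without a replicate block; with it edgeR called 0 genes in JU against JA, as without it.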

Additional observations from a re-analysis of the deposited data

How the results depend on the processing

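Main counts of genes called were 760 in vehicle against sham, 236, 525 and 0 in JA, UA and JU against vehicle, and 0 and 164 in JU against JA and UA. DESeq2 gave 2419, 924, 1468, 0, 610 and 1536 in this order. Limma on log2 FPKM gave 503, 0 and 268 in the first 3, fitting only the groups compared gave 3763, 0 and 2159, and 0 for JU against UA. Without a filter the count was 96 for JA against vehicle and 0 for JU against UA. With the replicate number as a block, counts were 383, 0 and 191 in the first 3 and 0 for JU against UA; the block changed no call of a globin, Alas2 or another red cell gene. Leaving out single libraries moved the counts between 0 (without sham replicate 3) and 5172, 0 and 2899, and 0 (without vehicle replicate 2) and 4300, each highest without JU replicate 1. In JU against vehicle they lay between 0 and 1, in JU against JA at 0, and in JU against UA between 0 and 3068, highest without JU replicate 2. Red cell genes called numbered 0 throughout, but 1 (Tal1) in vehicle against sham with DESeq2 or only the groups compared, and up to 2, 1, 1 and 2 in vehicle against sham, JA and UA against vehicle and JU against UA without JU replicate 1 or 2 (Tal1, Slc25a37, Gypc). The difference in mean log2 CPM of the 5 genes kept its direction under every scaling, FPKM, the sum of 4 globins and without Hba-a2. For JU against UA it fell from 1.81 to 1.38 for the sum of 4 globins and 1.36 without Hba-a2. Leaving out single libraries, the 5-gene difference ranged from -4.06 to -1.97 in vehicle against sham and -0.75 to 1.34 in JA against vehicle. It ranged from 1.53 to 3.62 in UA against vehicle and 3.34 to 5.43 in JU against vehicle. It ranged from 3.28 to 4.63 in JU against JA and 1.40 to 2.27 in JU against UA. Vehicle replicates 2 and 3 set the ends of the ranges against vehicle. The causes were not tested. Depth limits Hba-a2 and the 14 red cell genes under 1 CPM, and the proportions in the 3 libraries with 84 to 254 globin counts.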
